A study of Mus musculus with 9 samples.

Results

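Transcripts of 9 genes for myoblast fusion and muscle membrane repair (Mymk, Mymx, Nphs1, Jam2, Jam3, Adgrb3, Myof, Dysf and Cav3) were followed in mouse hindlimb muscle over the first postnatal weeks. The 9 were picked by gene symbol out of 22180 genes with a probe set named for 1 gene only. The rule used no measured value, but earlier results of these data were known when it was set. All 9 were found under their current symbols, each with 1 probe set except Dysf, which had 2. The muscle was skeletal muscle of the hindlimb, taken on postnatal day 2 (P2), day 7 (P7) or day 14 (P14) from mice whose strain is labelled mixed, with no treatment named. Each age had 3 arrays, described as biological replicates. The sources used here do not say whether 1 mouse or several made up a replicate, so p-values reflect only how far these samples differ, which may in part be technical.

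Muscle fibres grow by the fusion of myoblasts with each other and with fibres that already exist. In mice the cell surface proteins myomaker (Mymk) and myomerger (Mymx) act in sequence to mix and then open the 2 membranes, after adhesion proteins and receptors have brought the cells together and the actin cortex has been remodelled. The finished fibre is easily torn by contraction, and ferlins and caveolin 3 serve its surface membrane and the patching of wounds.

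Values are log2 signals after the submitters' normalization between arrays. A level of 3.23, the 95th percentile of 1432 smell, taste and pheromone receptor genes, served as background. Levels are compared between ages for 1 gene and not between genes, because probe sets differ in brightness. A gene was called when limma's p-value, adjusted over all 22180 genes by the method of Benjamini and Hochberg, was under 0.05. Precision is limited by the number of arrays. The 8 muscle fibre markers (among them Ckm and Acta1) were above background on all 9 arrays. P2 replicate 2 stood apart from the other P2 arrays on the second principal component (-33.2, against 21.5 and 27.8), which held 14.3% of the variance. On the first, which held 38.2%, P2 replicate 1 lay farthest out (-46.2, against -28.8 and -23.7 for P2 replicates 2 and 3).

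Of the 9 genes, 2 were lower at P14 than at P2 and 0 were higher. Myof, a ferlin of fusing myoblasts, was 1.64-fold lower at P14. Adgrb3, a receptor that promotes fusion, was also called lower, but its values lay under the background level at all 3 ages. The other 7 were not called for any pair of ages. The 2 calls are a small part of a broad change, since 11% of all genes were called between P14 and P2, and 4.40% were called lower at P14. Between P7 and P2 limma called 0 of the 9, where 0.329% of all genes were called. At an unadjusted p under 0.05 there were 2 of the 9 (Myof and Jam3) and 12.8% of all genes. Between P14 and P7 it again called 0 of the 9, where 2.43% of all genes were called, and an unadjusted p under 0.05 was found for 1 of the 9 (Adgrb3) and 14.6% of all genes. A moderated F-test for any change over the 3 ages called 1 of the 9, Myof, against 8.24% of all genes. It called 0 of the 9 with the replicate block, over all probe sets, and without P2 replicate 1 or any 1 of the P14 arrays, and 2 without P2 replicate 2. The change from the earlier to the later interval was not called different by limma for any of the 9, against 0.194% of all genes called. An unadjusted p under 0.05 for that difference was found for 0 of the 9 and 8.12% of all genes. The median log2 change of the 9 genes was -0.19 between P7 and P2, 0.02 between P14 and P7 and -0.18 between P14 and P2, beside -0.01, 0.02 and 0.01 over all genes.

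**Figure D1:**
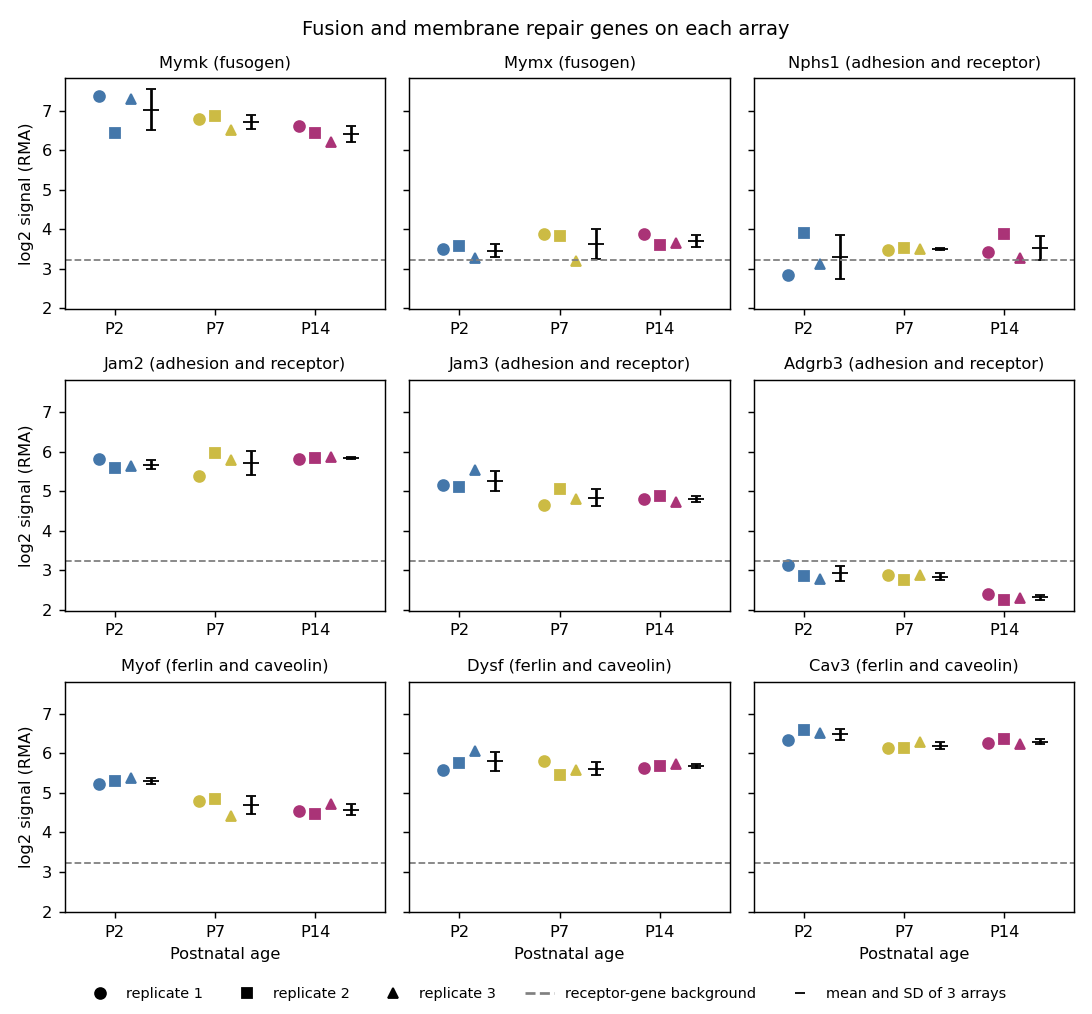
Log2 signal (vertical axis) of each of the 9 genes on each array at P2, P7 and P14 (horizontal axis), with a marker shape per replicate number, the mean ± SD of 3 arrays in black and the receptor-gene background of 3.23 as a dashed line. Myof stood higher on all P2 arrays than on any later one, Mymk was lower on P2 replicate 2 than on the other P2 arrays, and Adgrb3 lay under the dashed line throughout.

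Mymk encodes myomaker, the membrane protein that fusing myoblasts need on their surface. Its signal was 7.36, 6.42 and 7.29 on the P2 arrays, 6.78, 6.86 and 6.52 on the P7 arrays and 6.61, 6.44 and 6.20 on the P14 arrays, with replicates 1, 2 and 3 in that order here and below. P2 replicates 1 and 3 were higher than every later array, while P2 replicate 2 fell within the P14 range. Mymk averaged 6.42 ± 0.20 at P14 and 7.02 ± 0.52 at P2 (SD, n = 3), a log2 change of -0.61 ± 0.23 (SE), which limma did not call (adjusted p = 0.121). The 95% interval of that change reached from -1.11 to -0.10. The call turned on 1 array and on the normalization. Cyclic loess normalization gave a change of -0.76 that was called (adjusted p = 0.0382). Without P2 replicate 2 the change was -0.91 and was called (adjusted p = 0.00732), and with the other single arrays left out it was not called, the highest adjusted p being 0.346 without P2 replicate 1, where the change was -0.44. The log2 change was -0.30 ± 0.23 between P7 and P2 and -0.30 ± 0.23 between P14 and P7, and neither was called (adjusted p = 0.635 and 0.627).

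On P2 replicate 2 the mean of 6 markers of dividing cells (such as Mki67 and Top2a) was also low, 4.85 against 5.53 and 5.58 on P2 replicates 1 and 3. The part of this difference in the Mymk values was not tested. The mean of 8 satellite cell and myoblast markers differed less, 5.19 against 5.33 and 5.32. In whole muscle, fewer cells of a type and less RNA per cell cannot be told apart, which applies to every result here.

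Mymx encodes myomerger, the small protein that completes the fusion pore. It had values of 3.51, 3.58 and 3.27 at P2, 3.88, 3.83 and 3.19 at P7, and 3.88, 3.59 and 3.64 at P14. These lay close to background, with 8 of 9 arrays above it. The P14 arrays were all above the P2 arrays, by a narrow gap, and the P7 arrays spanned both. Mymx averaged 3.71 ± 0.15 at P14 and 3.45 ± 0.16 at P2 (SD, n = 3), a log2 change of 0.26 ± 0.20 (SE) that was not called (adjusted p = 0.488). The interval of that change, -0.18 to 0.69, held no rise above 1.61-fold, on a probe set this dim.

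Nphs1 encodes nephrin, an adhesion protein best known from the kidney filter that also serves myoblast fusion in mouse and zebrafish. Its signal was 2.83, 3.91 and 3.13 at P2, 3.48, 3.52 and 3.51 at P7, and 3.42, 3.87 and 3.28 at P14. The P2 arrays alone spanned the range of all later ones, and 7 of 9 arrays were above background. Between P14 and P2 it differed by 0.24 ± 0.25 on the log2 scale (adjusted p = 0.616, not called). Of the 3 measured podocyte markers, Ptpro was above background on 3 of 9 arrays, and Wt1 and Podxl on all 9. Wt1 averaged 3.39 at P2, 3.92 at P7 and 3.64 at P14, and was not called for any pair of ages. Podxl, which endothelial cells also express, was called higher at P14 (log2 0.71), and this call ended without P2 replicate 1 or 2 or any P14 array (adjusted p up to 0.111).

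Jam2 and Jam3 encode junctional adhesion molecules that bind each other, and in zebrafish the pair is needed for fast muscle precursors to fuse. Both are also made by endothelial cells. Jam2 had 5.80, 5.58 and 5.64 at P2, 5.38, 5.96 and 5.78 at P7, and 5.82, 5.84 and 5.87 at P14. All P14 arrays were above the P2 arrays, and P7 held both the lowest and the highest array. Its log2 change between P14 and P2 was 0.17 ± 0.18, with an interval of -0.21 to 0.55, and was not called (adjusted p = 0.624).

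Jam3 went the other way in sign. Its arrays read 5.15, 5.10 and 5.55 at P2, 4.66, 5.06 and 4.80 at P7, and 4.81, 4.88 and 4.72 at P14. Every P2 array was above every P7 and P14 array. Jam3 averaged 4.80 ± 0.08 at P14 and 5.27 ± 0.25 at P2 (SD, n = 3), a log2 change of -0.46 ± 0.18 (SE) that missed the threshold (adjusted p = 0.126). Between P7 and P2 the change was -0.43 ± 0.18 (adjusted p = 0.345), and between P14 and P7 it was -0.04 ± 0.18 (adjusted p = 0.961). The mean of 9 endothelial markers lay within 5.33 to 5.90 on the P2 arrays, 5.59 to 5.96 on the P7 arrays and 5.88 to 6.04 on the P14 arrays, and 1 of the 9, Esam, was called, higher at P14 (lost without P2 replicate 1 or 2 or any P14 array, adjusted p up to 0.126). At an unadjusted p under 0.05 in limma there were 5 of these 9 markers between P14 and P2, against 24.3% of all genes. The median log2 change of the 9 markers was 0.43, beside 0.01 over all genes. None of the 9 markers lay under background on any array. The part of endothelial cells in the Jam2 and Jam3 values was not tested.

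Adgrb3 encodes an adhesion receptor abundant in neurons, which in myoblasts binds the Elmo and Dock proteins that activate Rac. Its values were 3.14, 2.86 and 2.79 at P2, 2.89, 2.75 and 2.89 at P7, and 2.39, 2.25 and 2.31 at P14. All 9 values were under the background level, and 88.3% of the receptor genes had a lower mean. The P14 arrays were nonetheless below all others. Adgrb3 averaged 2.32 ± 0.07 at P14 and 2.93 ± 0.19 at P2 (SD, n = 3), a log2 change of -0.61 ± 0.16 (SE, adjusted p = 0.0260), and no fold is given at this level. The call ended without P2 replicate 1 or any 1 of the P14 arrays, with an adjusted p of up to 0.104. Between P14 and P7 the change was -0.53 ± 0.16 (adjusted p = 0.118) and between P7 and P2 it was -0.08 ± 0.16 (adjusted p = 0.877). The mean of 5 Schwann cell and nerve markers was 3.32 to 3.86 at P2 and 3.50 to 3.85 at P14. Between P14 and P2 limma called 0 of 5 (11% of all genes), and 1 had an unadjusted p under 0.05 (24.3% of all genes). From P2 to P14 the means of Ncmap (2.93 to 3.59) and Mbp (3.96 to 4.05) rose. Those of Sox10 (3.57 to 3.42), S100b (3.59 to 3.26) and Egr2 (4.15 to 3.88) fell. Sox10 and S100b were above background on 7 of 9 arrays and Ncmap on 5. The part of nerve in the Adgrb3 values was not tested.

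Myof encodes myoferlin, a calcium-sensing membrane protein that mouse myoblasts need to fuse with large myotubes. It had 5.21, 5.29 and 5.37 at P2, 4.80, 4.84 and 4.43 at P7, and 4.54, 4.47 and 4.72 at P14. The P2 arrays stood above all later ones, and the P7 and P14 arrays overlapped. Myof averaged 4.58 ± 0.13 at P14 and 5.29 ± 0.08 at P2 (SD, n = 3), and fell by 0.71 ± 0.17 on the log2 scale (SE, adjusted p = 0.0147), with an interval of -1.08 to -0.34. It kept the call in 7 of 9 fits that left out 1 array and lost it without P14 replicate 1 (adjusted p = 0.0618) or P14 replicate 2 (adjusted p = 0.0741). Between P7 and P2 the log2 change was -0.60 ± 0.17 and was not called (adjusted p = 0.148), and between P14 and P7 it was -0.11 ± 0.17 (adjusted p = 0.846). Myoferlin is also made by fibroblasts and endothelial cells. Of 7 fibroblast markers 1 was called between P14 and P2, Pdgfra, lower at P14, against 11% of all genes called. That call was lost in all 9 fits that left out 1 array but that without P2 replicate 3 (adjusted p up to 0.182). The other 6 were not called. From P2 to P14 the means of Dcn (9.71 to 10.07), Lum (6.59 to 6.75) and Pi16 (4.27 to 4.84) rose. Those of Col1a1 (10.86 to 10.13), Dpt (8.68 to 8.42) and Mfap5 (7.21 to 7.04) fell. The mean of the 7 was 7.65 to 7.82 at P14 and 7.66 to 8.13 at P2. The part of fibroblasts and endothelial cells in the Myof result was not tested.

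The genes whose values over the 9 arrays were most like those of Myof, by Pearson r among 14379 other genes above background, were Pygb (r = 0.97), a glycogen phosphorylase, Hdac9 (r = 0.96), a class II deacetylase, and Rgs2 (r = 0.96), a regulator of G protein signalling. These correlations describe 9 arrays that fall into 3 ages and share 1 normalization. Between P14 and P2 Rgs2 fell by 0.78 ± 0.19 on the log2 scale (adjusted p = 0.0163), while Pygb (-0.55, adjusted p = 0.0595) and Hdac9 (-0.44, adjusted p = 0.106) were not called.

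Dysf encodes dysferlin, a ferlin of the adult fibre membrane whose loss causes a limb-girdle muscular dystrophy in humans. Its brighter probe set had 5.58, 5.75 and 6.06 at P2, 5.80, 5.46 and 5.58 at P7, and 5.63, 5.68 and 5.72 at P14. The ages overlapped throughout. The log2 change between P14 and P2 was -0.12 ± 0.18, with an interval of -0.50 to 0.25, and was not called (adjusted p = 0.732). The other Dysf probe set had means of 4.17 ± 0.37 at P2, 4.45 ± 0.24 at P7 and 4.58 ± 0.23 at P14 (SD, n = 3). Its log2 change between P14 and P2 was 0.41 ± 0.23, opposite in sign to the brighter one and not called (adjusted p = 0.376 over all 41345 probe sets).

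Cav3 encodes caveolin 3, the coat protein of muscle caveolae, which also takes part in building the T-tubules. It had 6.33, 6.59 and 6.52 at P2, 6.13, 6.14 and 6.29 at P7, and 6.27, 6.37 and 6.25 at P14. The P7 arrays were all below the P2 arrays, and the P14 arrays overlapped both. The log2 change was -0.29 ± 0.16 between P7 and P2 (adjusted p = 0.475), 0.11 ± 0.16 between P14 and P7 (adjusted p = 0.838) and -0.18 ± 0.16 between P14 and P2 (adjusted p = 0.537). The interval of the last, -0.52 to 0.16, held no fall beyond 1.44-fold.

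Over the 9 genes, the arrays of the ages did not overlap for 3 genes between P7 and P2 (Jam3, Myof and Cav3, all lower at P7), where 15.2% of all genes did not overlap. Between P14 and P7 this held for 1 gene (Adgrb3, lower at P14), against 23.9% of all genes. Between P14 and P2 it held for 5 genes (Jam3, Adgrb3 and Myof lower and Mymx and Jam2 higher at P14), against 28.7% of all genes.

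**Figure D2:**
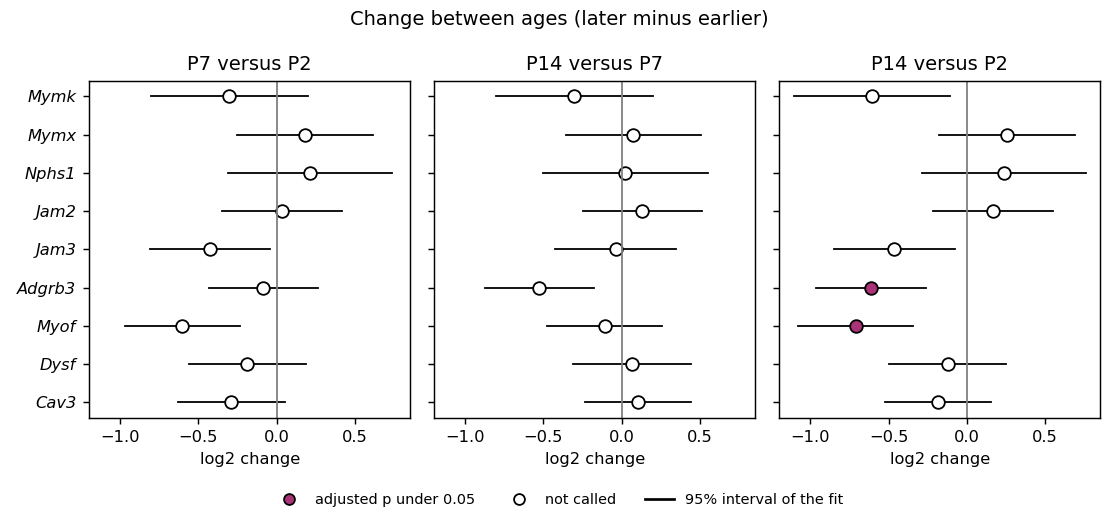
Log2 change (horizontal axis, later minus earlier age) of each of the 9 genes for the 3 pairs of ages, as a point with the 95% interval of the fit, filled where the adjusted p was under 0.05. The filled points are Myof (-0.71) and Adgrb3 (-0.61) between P14 and P2.

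Promoter sequences in RefSeq (build GRCm38.p6, 250 bases before to 50 bases after the annotated gene start) were matched by symbol for 5 of the 9 genes, in 6 windows. Those of Myof, the gene above background that was called, and Cav3, a fibre membrane gene that was not, are printed as an example of 1 promoter without and 1 with the E-box CANNTG, the letters that myogenic bHLH factors bind. Capitals mark CANNTG, which reads the same on both strands. The Myof window is on the minus strand at chr19:38043528-38043827 and the Cav3 window on the plus strand at chr6:112459255-112459554.
Myof: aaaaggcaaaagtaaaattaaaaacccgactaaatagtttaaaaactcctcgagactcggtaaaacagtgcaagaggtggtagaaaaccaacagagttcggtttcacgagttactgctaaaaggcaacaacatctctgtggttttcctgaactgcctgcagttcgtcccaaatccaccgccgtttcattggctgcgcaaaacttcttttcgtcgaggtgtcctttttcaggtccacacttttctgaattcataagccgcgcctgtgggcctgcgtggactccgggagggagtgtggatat
Cav3: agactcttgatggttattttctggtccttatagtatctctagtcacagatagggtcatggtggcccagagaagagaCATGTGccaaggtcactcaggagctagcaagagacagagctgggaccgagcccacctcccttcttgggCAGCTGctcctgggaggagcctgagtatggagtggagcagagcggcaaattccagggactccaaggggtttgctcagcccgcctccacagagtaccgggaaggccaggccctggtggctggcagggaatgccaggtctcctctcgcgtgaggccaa
CANNTG occurred 0 times in the Myof window and 2 times in the Cav3 window, with first bases at -174 and -106 from the gene start, and 1 of the 2 was CAGCTG, a form of the same motif. Of 32851 promoter windows of this length, 72.3% held CANNTG and 16.3% held CAGCTG, so neither sets Cav3 apart. The 1 Adgrb3 window held 2 CANNTG matches, the 2 Dysf windows 0 and 1, and the Nphs1 window 0. A match describes letters and not a bound site.

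Other genes of the fusion and repair pathways included some that rose and some that fell. In 6 lists with 105 measured genes of 111, 10 were called higher and 10 lower between P14 and P2, or 19.0% against 11% of all genes. Of all genes, 4.40% were called lower at P14. The lists were chosen with earlier results of these data known, so these shares are not an unbiased comparison. Between P14 and P7 there were 3 higher and 1 lower, or 3.81% against 2.43% of all genes. Between P7 and P2 there were 0 higher and 1 lower, or 0.952% against 0.329% of all genes. The same shares of all genes apply to the counts of each list below. With any 1 array left out, 11 of the 20 calls between P14 and P2 held, 1 of the 4 between P14 and P7 (Ano5) and 0 of the 1 between P7 and P2. The number called between P14 and P7 was then 1 without P7 replicate 2 or 3 or any P14 array and 2 without P7 replicate 1. Between P7 and P2 it was 0 without any 1 P7 array or P14 replicate 3, and 4 without P2 replicate 2.

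Among 10 transcription regulators of fusion genes, Myf5, an early myogenic factor of myoblasts, was the gene called between P7 and P2. It averaged 4.05 ± 0.34 at P7 and 5.25 ± 0.23 at P2 (SD, n = 3; log2 change -1.20 ± 0.22, SE, adjusted p = 0.0329). This call was lost in 5 of the 9 fits that left out 1 array (without P2 replicate 3, any P7 array or P14 replicate 3, adjusted p up to 0.121). Between P14 and P2 Myf5 was 2.17-fold lower (adjusted p = 0.00415), with 4.13 ± 0.31 at P14, and held with any array left out. Myf6, the factor of mature fibres, was 1.57-fold higher at P14 than at P2 (adjusted p = 0.0395), a call lost in 6 of 9 such fits (without P2 replicate 1 or 3, P7 replicate 1 or any P14 array, adjusted p up to 0.146) and with cyclic loess (adjusted p = 0.153). Myod1 (log2 0.57, adjusted p = 0.0831) and Myog (-0.24, adjusted p = 0.424), which drive myoblast differentiation, and the satellite cell factor Pax7 (-0.39, adjusted p = 0.445) were not called.

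Of 19 adhesion and surface genes, 5 were lower at P14 than at P2, 0 were higher and 14 were not called, with a median log2 change of -0.37 beside 0.01 over all genes. Ncam1, a neural cell adhesion molecule of young fibres and satellite cells, was 2.92-fold lower (5.57, 5.84 and 5.81 at P14, against 7.52, 7.18 and 7.16 at P2). Its arrays did not overlap and its adjusted p was 4.28e-05. It was also lower at P14 than at P7 (log2 -0.71, adjusted p = 0.0410), a call that ended on leaving out any array of those ages, where the adjusted p reached 0.197. The metalloprotease gene Adam12, a mark of fusing cells, was 1.99-fold lower (adjusted p = 0.00735). Kirrel, a binding partner of nephrin, was 1.67-fold lower (4.06 ± 0.05 at P14 and 4.80 ± 0.28 at P2, SD, n = 3, adjusted p = 0.0203), and this call ended without P2 replicate 1 or 3 or any P14 array (adjusted p up to 0.0793). Vcam1 (1.69-fold lower) and the muscle cadherin Cdh15 (1.52-fold lower) were called at an adjusted p of 0.0408 and 0.0417 and lost it in 6 and 7 of 9 such fits (Vcam1 kept it without P2 replicate 2 or P7 replicate 2 or 3, and Cdh15 without P2 replicate 2 or P7 replicate 2, with adjusted p up to 0.164 and 0.156 in the others). The satellite cell and myoblast markers, of which 6 of 8 (Pax7, Myf5, Myod1, Myog, Cdh15 and Vcam1) also stand in the regulator or surface lists, had 3 of 8 called (Myf5, Vcam1 and Cdh15), all lower, and a list mean of 4.94 to 4.98 at P14 and 5.19 to 5.33 at P2. Dividing cell markers had 5 of 6 called lower, with a list mean of 3.87 to 4.20 at P14 and 4.85 to 5.58 at P2. Their part in the falls of the surface genes was not tested.

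Of 19 genes for actin remodelling, 2 were lower at P14 than at P2 and 17 were not called. Diaph3, a formin that is also active in dividing cells, was 2.48-fold lower (adjusted p = 0.00266). The exchange factor Trio was 1.57-fold lower (adjusted p = 0.0193, lost without P14 replicate 1 or 2, adjusted p up to 0.0974). The partners of Adgrb3 in activating Rac had log2 changes of -0.13 (Elmo1), -0.15 (Elmo2), -0.36 (Dock1) and 0.06 (Dock5), none called (adjusted p of 0.321 to 0.879).

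The membrane repair list was divided in direction, with 4 of 23 genes higher and 2 lower at P14 than at P2. Ano5, a membrane protein whose loss causes a muscular dystrophy with poor repair, rose most among the called genes of the 6 lists. It had 7.46, 7.49 and 7.40 at P14, against 3.90, 5.35 and 5.22 at P2, and 5.63, 5.96 and 5.94 at P7. The ages did not overlap, and Ano5 was 6.18-fold higher at P14 than at P2 (log2 2.63 ± 0.29, SE, adjusted p = 5.21e-05) and 3.04-fold higher than at P7 (adjusted p = 0.00860). With 1 array left out, the log2 change between P14 and P2 was 2.16 to 2.89. The call against P7 was lost when all probe sets were tested (adjusted p = 0.0862). Capn3, the muscle calpain, was 1.94-fold higher (6.84, 6.83 and 6.63 at P14, against 5.59, 5.94 and 5.90 at P2, adjusted p = 0.00183). The acid sphingomyelinase gene Smpd1 was 1.95-fold higher at P14 than at P2 (adjusted p = 0.00616) and 1.98-fold higher than at P7 (adjusted p = 0.0170, lost in 5 of 9 fits that left out 1 array, without P7 replicate 2 or 3 or any P14 array, adjusted p up to 0.0919). The call against P2 was lost when its probe sets were averaged (adjusted p = 0.0758). Mcoln1, a lysosomal calcium channel, was 1.51-fold higher (adjusted p = 0.0405) and lost the call in 6 of 9 fits that left out 1 array (without P2 replicate 1 or 2, P7 replicate 1 or any P14 array, adjusted p up to 0.135).

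The annexins bind membrane phospholipids when calcium enters a wound. Anxa2 was 2.12-fold lower at P14 than at P2 (5.81, 5.86 and 6.00 at P14, against 7.12, 6.46 and 7.33 at P2, adjusted p = 0.00405), and held with any array left out. P2 replicate 2 was the lowest of its P2 arrays, as for Mymk. Anxa5 was 1.68-fold lower (adjusted p = 0.0132, lost without P14 replicate 1 or 2, adjusted p up to 0.0721). Anxa1 (log2 -0.41) and Anxa6 (-0.52, adjusted p = 0.0658) were not called. Trim72, the muscle protein that gathers vesicles at a tear, differed between P14 and P2 by -0.01 ± 0.17 on the log2 scale (adjusted p = 0.977, not called). Annexins are also made by fibroblasts and other cells, whose markers are given above.

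Of 17 caveola and T-tubule genes, 3 were higher at P14 than at P2 and 0 were lower. Jph1 and Jph2, the junctophilins that hold the T-tubule to the calcium store, were 2.18-fold and 2.19-fold higher (adjusted p = 0.00199 and 0.00921). The Jph2 call was lost when all probe sets were tested (adjusted p = 0.0515). Pacsin2, a membrane-bending protein of caveolae, was 1.66-fold higher (adjusted p = 0.0111, lost without P14 replicate 3, adjusted p = 0.0542). It was also 1.63-fold higher at P14 than at P7 (adjusted p = 0.0398), a call that ended on leaving out any array of those ages, where the adjusted p reached 0.165. The partners of caveolin 3 were not called between P14 and P2, with log2 changes of 0.44 ± 0.16 for the muscle cavin Cavin4 (adjusted p = 0.0957), -0.03 for Cavin1, 0.16 for Cav1 and 0.22 for Ehd2. Bin1, which shapes T-tubules, had a log2 change of 0.12 (adjusted p = 0.753). Markers of the muscle fibre were also higher, with 4 of 8 called (log2 changes of 1.92 for Mb, 1.44 for Casq1, 0.98 for Ckm and 0.75 for Tnnt3) and a list mean of 10.5 to 10.6 at P14 and 9.60 to 9.93 at P2. The Tnnt3 call was lost with cyclic loess (adjusted p = 0.0509). Pericyte and smooth muscle markers had 3 of 6 called higher (Rgs5, log2 1.98, Kcnj8, 1.17, and Acta2, 0.86, the last lost without P14 replicate 2, adjusted p = 0.0557), while the other 3 were not called and had negative log2 changes (Myh11, -0.24, Cspg4, -0.48, and Notch3, -0.37). The list mean was 6.63 to 6.78 at P14 and 6.05 to 6.45 at P2. The part of either in the higher repair, caveola and T-tubule genes was not tested.

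Among 17 measured paralogs and partners of the 9 genes, 2 were higher at P14 than at P2. Tcap, a Z-disc protein beneath the fibre membrane, was 2.60-fold higher (adjusted p = 0.00882, lost when all probe sets were tested, adjusted p = 0.0558). Adgrb1, a relative of Adgrb3 that promotes fusion in mice, averaged 3.41 ± 0.19 at P14 and 2.74 ± 0.19 at P2 (SD, n = 3), the second under background (adjusted p = 0.0298), and its call did not survive leaving out either of P2 replicates 1 and 2 or either of P14 replicates 2 and 3, where the adjusted p reached 0.133. Adgrb2 (log2 0.07), the Mymk relatives Pgap6 (-0.10) and Tmem8b (0.09), the ferlin Otof (0.15) and the Jam relative F11r (0.39) were not called. The C1q-like genes, whose products bind Adgrb3, were near or under background (C1ql1, C1ql2 and C1ql4, log2 changes of -0.35 to 0.09, none called).

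**Figure D3:**
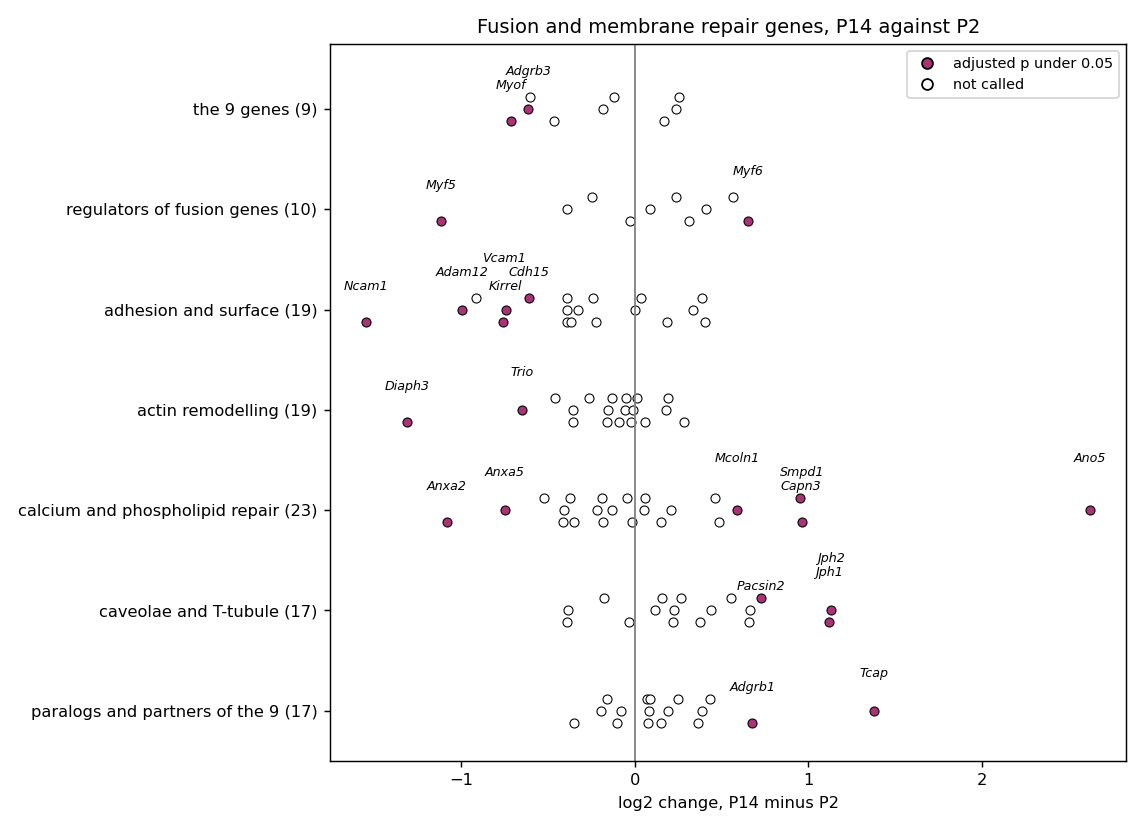
Log2 change between P14 and P2 (horizontal axis) of the 9 genes and of the measured genes of 6 lists (rows, with the number measured), 1 point per gene, filled and named where the adjusted p was under 0.05. Called surface and actin genes lie to the left of 0, called caveola and T-tubule genes to the right, and Ano5 (2.63) is the largest rise.

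**Figure D4:**
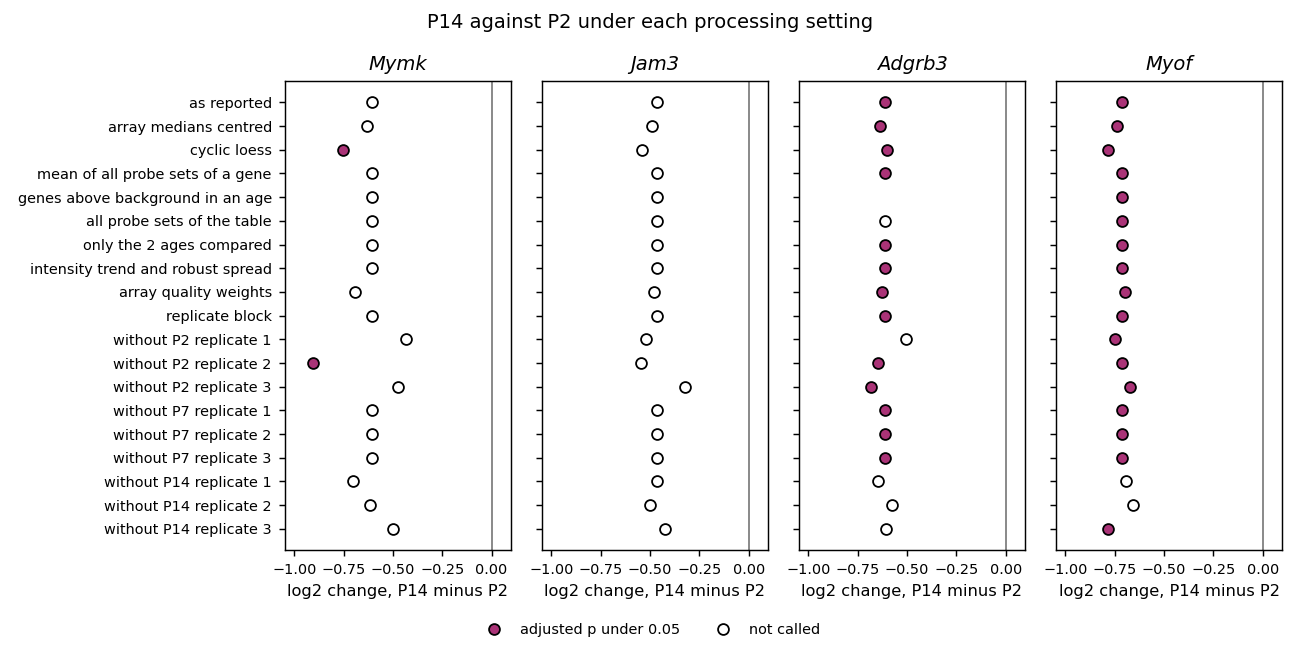
Log2 change between P14 and P2 (horizontal axis) of Mymk, Jam3, Adgrb3 and Myof as reported and under each alternative (rows), filled where the adjusted p was under 0.05. Myof is filled in 17 of 19 rows, Mymk in 2 (cyclic loess and without P2 replicate 2) and Jam3 in 0. Adgrb3 has no value where genes under background were removed.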

How the data were processed

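RNA of 9 hindlimb muscle samples was hybridised to arrays. The deposited values are log2 intensities per probe set. The submitters' processing notes name RMA and Partek and give no version. That the scale is log2 rests on RMA, and the sources used here do not name a genome build. Array medians were 3.29 to 3.36. Of 41345 probe sets, 23521 with 1 symbol in the platform annotation were kept, and symbols were updated by Entrez number (23328 matched RefSeq, GRCm38.p6). The probe set with the highest mean stood for each of 22180 genes, with no filter. limma 3.58.1 in R 4.3.3 fitted 1 mean per age with 1 shared spread and empirical Bayes moderation, two-sided. The fit was tested on simulated data. Intervals are 95% moderated t intervals of 1 gene, unadjusted. The genes and lists were chosen with earlier results of these data known. Named genes were the 9, preset partners, up to 4 called genes per list and comparison by adjusted p, and the 3 genes most correlated with a gene the F-test called. Podocyte, endothelial, fibroblast, satellite cell, nerve and dividing cell markers are given beside the results they touch. Macrophage, tendon, adipocyte and pericyte markers had 0, 0, 1 and 3 genes called between P14 and P2 (1 macrophage and 1 tendon gene at an unadjusted p under 0.05). Alternatives covered normalization, probe set choice, filter, table, arrays fitted, spread, weights, the replicate block and each array left out.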

Additional observations from a re-analysis of the deposited data

How the results depend on the processing

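The log2 changes of the 9 genes were recomputed under 9 alternatives and with each array left out. Between P14 and P2, 2 genes were called. That number was 1 when genes under background were removed (Adgrb3 was then not tested) and 1 when all probe sets were tested, 3 with cyclic loess (Mymk added), and 0 to 3 with 1 array left out. Between P14 and P7 it was 0, and 1 (Adgrb3) with array quality weights. Between P7 and P2, and for the difference between the intervals, it was 0 in every fit run. The F-test called 1 gene, 2 with centred medians, 2 with averaged probe sets, 2 with array weights, 0 over all probe sets and 0 with the replicate block, and 0 to 2 with 1 array left out. The replicate block otherwise kept the 2 calls between P14 and P2 (Myof, adjusted p = 0.0273, and Adgrb3, adjusted p = 0.0346). The numbers are shared between ages, and deviations of same-numbered arrays correlated at -0.03 to 0.07. With so few arrays per age, these correlations cannot show whether the numbers pair the samples. Cyclic loess called Mymk between P14 and P2 (log2 -0.76, adjusted p = 0.0382). The cause of these moves was not tested.

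The sign changes were all in changes that were not called as reported or under the alternative. Averaging the Dysf probe sets gave 0.050 between P7 and P2 and 0.15 between P14 and P2. Cyclic loess gave -0.0075 for Jam2, -0.074 for Dysf and -0.040 for Cav3 between P14 and P7, and array weights gave -0.0091 for Jam2 between P7 and P2. With 1 array left out, the P7 against P2 ranges were -0.018 to 0.52 for Nphs1, -0.091 to 0.20 for Jam2 and -0.15 to 0.021 for Adgrb3. The P14 against P7 ranges were -0.15 to 0.20 for Mymx, -0.15 to 0.15 for Nphs1, -0.031 to 0.26 for Jam2, -0.13 to 0.075 for Jam3 and -0.010 to 0.16 for Dysf. Dysf ranged from -0.23 to 0.010 between P14 and P2. Over all genes the count called between P14 and P2 was 2447 (1373 to 2886 over all alternatives), between P14 and P7 538 (214 to 1221) and between P7 and P2 73 (6 to 206). The F-test count was 1827 (845 to 2232) and the count for the difference between the intervals 43 (1 to 53). The 105 pathway genes had 20 calls between P14 and P2, 12 to 24 over all alternatives. They had 4 between P14 and P7 (0 to 9) and 1 between P7 and P2 (0 to 4). Probe sets near background limit Mymx, Nphs1 and Adgrb3.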
